A study of Mus musculus with 6 samples.

Results

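The vacuolar H+-ATPase (V-ATPase) genes described here are 10 of the 54752 genes counted in the mouse hippocampus. They were taken by symbol, as the subunits that exist in neuron-rich, macrophage-rich or general forms, together with the single-form partners they assemble with. The a subunit is represented by Atp6v0a1 (neuron-rich) and Tcirg1 (macrophage-rich), the d subunit by Atp6v0d1 (general) and Atp6v0d2 (macrophage-rich), and the G subunit by Atp6v1g1 (general) and Atp6v1g2 (neuron-rich). Atp6v1a, Atp6v1b2, Atp6v1h and the accessory gene Atp6ap1 complete the set. All 10 were found, and all 10 passed the filter on low counts, Atp6v0d2 through the BCAS libraries alone.

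RNA came from the whole right hippocampus of 6 male wild-type C57BL/6 mice (C57BL/6 J in the methods), with 1 library per mouse. In the 3 BCAS mice, bilateral carotid artery stenosis was produced by a microcoil around each common carotid artery, with the narrower coil on the right, which lowers blood flow to the brain. The 3 sham mice had the same operation without coils. The methods place tissue collection 3 weeks after surgery, and the labels give 14 weeks for every mouse, read here as age. The comparison asks how the hippocampal transcriptome differs after chronic hypoperfusion. It cannot separate cell types, since all cells of the tissue were extracted together.

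The V-ATPase is a rotary proton pump. Its V1 sector hydrolyses ATP in the cytosol, and its V0 sector carries protons through the membrane. The acid interior it makes drives lysosomal digestion, and in nerve terminals the same gradient powers the loading of synaptic vesicles with transmitter. The a subunit decides in large part to which membrane a pump goes. The a1 form is the one of synaptic vesicles, and the a3 form, encoded by Tcirg1, is used by lysosomes of macrophages and by the ruffled border of osteoclasts. The d2 form is likewise known from osteoclasts and macrophages, and the G2 form from neurons.

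Counts were assigned by gene, so forms of a subunit could be compared only if their reads can be told apart. Within the a and G pairs the coding sequences in GENCODE vM21 (GRCm38, the assembly called mm10) differ at many positions. Over aligned coding bases, Atp6v0a1 and Tcirg1 were 63.2% identical and Atp6v1g1 and Atp6v1g2 66.8%. The longest stretch shared without a difference was 29 bases in the a pair and 11 in the G pair. The lengths of the a pair were close, at 839 and 834 codons for Atp6v0a1 and Tcirg1. The first 90 coding bases of the a pair, whose members changed in opposite directions, are shown 5′ to 3′, with the bases that differ between the partners in capitals, 34 in all.
Atp6v0a1: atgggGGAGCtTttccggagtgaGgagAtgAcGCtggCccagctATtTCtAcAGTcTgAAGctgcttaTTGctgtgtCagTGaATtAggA
Tcirg1: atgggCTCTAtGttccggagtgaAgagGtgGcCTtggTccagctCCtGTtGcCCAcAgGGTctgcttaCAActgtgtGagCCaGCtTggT

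Across the 10 genes, the 2 macrophage-rich forms rose after BCAS, 6 neuron-rich or shared genes fell, and 2 genes, Atp6v1g1 and Atp6ap1, did not pass the test. Of the 2 that rose, Atp6v0d2 passed the filter only through the BCAS mice. Its place among the genes called, and among those without overlap, is therefore a description. A gene was called at an adjusted P under 0.05 in edgeR's quasi-likelihood test, with Benjamini-Hochberg adjustment over the 18617 genes tested. Of all tested genes, 18.0% were called higher and 13.2% lower in BCAS mice, 31.3% in either direction. The median log2 fold change of the 10 genes was -0.39, against 0.018 for all tested genes. Groups did not overlap in 8 of the 10 genes, as in 48.0% of all tested genes. Under the study's stricter threshold of an absolute log2 fold change above 1, which 8.47% of tested genes passed upwards, Tcirg1 and Atp6v0d2 remained and none of the 6 lower genes did, since the lowest log2 fold change among them was -0.71. The share of tested genes that passed this threshold downwards is not given, so the loss of the 6 is not set against all genes.

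**Figure D1:**
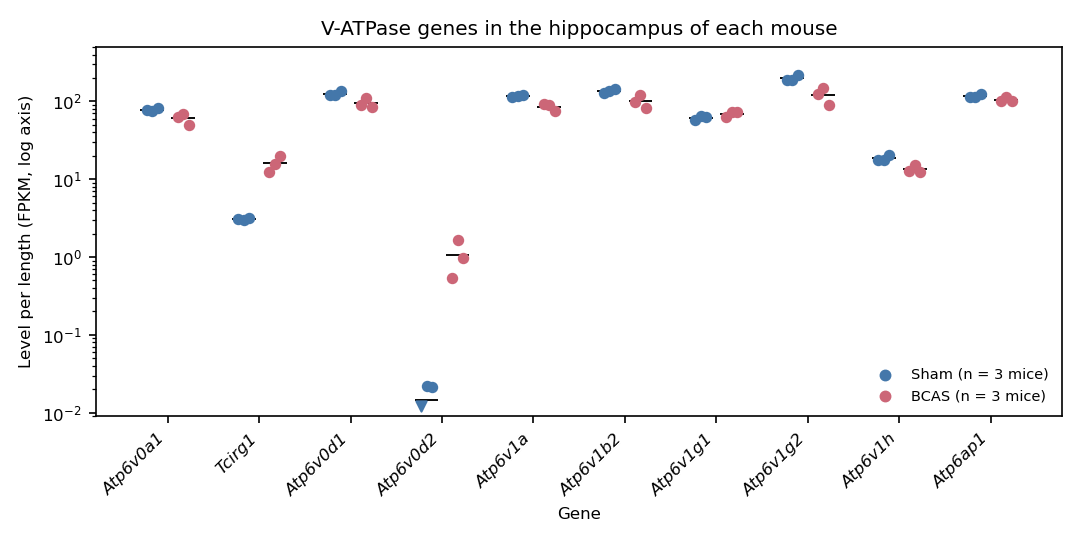
Level of each of the 10 V-ATPase genes in each mouse, as TMM-normalized FPKM on a log axis, with sham mice in blue, BCAS mice in red and group means as bars (n = 3 mice a group). The triangle marks sham mouse 1, which had no Atp6v0d2 count. Tcirg1 and Atp6v0d2 lie higher in every BCAS mouse, whereas Atp6v0a1, Atp6v0d1, Atp6v1a, Atp6v1b2, Atp6v1g2 and Atp6v1h lie lower in every BCAS mouse.

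The a subunit showed opposite changes of its forms. Tcirg1 (a3; chr19:3896050-3907133, minus strand, mm10) measured 3.06, 2.97 and 3.18 FPKM in the sham mice and 12.5, 15.7 and 19.8 FPKM in the BCAS mice. FPKM here is the TMM-normalized CPM divided by the gene's exonic length in kilobases, so levels of different genes can be set side by side. The sham mice lay close together, and every BCAS mouse was far above them. Tcirg1 rose 5.21-fold (log2 fold change 2.38, SE 0.16, adjusted P = 2.26e-05, edgeR). It remained called under every alternative tried, with adjusted P up to 0.00086.

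Atp6v0a1 (a1; chr11:101009452-101063719, plus strand) measured 77.5, 76.0 and 81.1 FPKM in sham mice and 63.3, 68.0 and 49.5 FPKM in BCAS mice. All BCAS mice were below all sham mice, and BCAS mouse 3, the one with the highest Tcirg1, had the lowest Atp6v0a1. Atp6v0a1 fell by 22.9% (log2 fold change -0.38, SE 0.12, adjusted P = 0.0437). In RNA of a whole tissue, fewer cells of a type and less RNA per cell cannot be told apart. This call had the largest adjusted P of the 6 lower genes in edgeR's test. With the library totals in place of TMM the adjusted P was 0.062, and it reached 0.131 when 1 mouse was left out.

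Taken per mouse, the FPKM of Tcirg1 equalled 3.94%, 3.91% and 3.92% of that of Atp6v0a1 in sham mice and 19.8%, 23.0% and 40.0% in BCAS mice. A ratio within a mouse does not depend on library scaling. On the log2 scale the ratio was -4.67 ± 0.0068 (SD, n = 3) in sham and -1.93 ± 0.54 (SD, n = 3) in BCAS mice, a 6.70-fold rise. The groups did not overlap, and the exact two-sided permutation test gave P = 0.1, the smallest value possible with 3 mice against 3. Adjusted over the 4 isoform pairs compared, P was 0.1 for each of them. For the pair of Atp6v0d2 and Atp6v0d1 this P is a description, since Atp6v0d2 passed the filter only through the BCAS mice.

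The forms also shifted as shares of the a subunit. Of the summed FPKM of Atp6v0a1, Atp6v0a2, Tcirg1 and Atp6v0a4, Tcirg1 took 3.40%, 3.39% and 3.43% in sham mice and 14.1%, 16.4% and 23.7% in BCAS mice. The share of Atp6v0a1 went from 86.9% ± 0.70 to 67.1% ± 6.94 (SD, n = 3), and that of Atp6v0a2, a form of the Golgi and endosomes, from 9.65% ± 0.71 to 14.8% ± 2.39. Neither share overlapped between the groups (exact permutation P = 0.1 each). The sum of the a forms was 90.01 ± 2.44 FPKM in sham and 89.4 ± 5.98 FPKM in BCAS mice, with overlapping groups (difference of the means -0.66%, exact permutation P = 0.9). By contrast, the summed forms of the d, e, G, B, C and E subunits had BCAS means that differed from the sham means by -23.4%, -23.6%, -26.5%, -26.8%, -23.4% and -28.3%, each lower without overlap (exact permutation P = 0.1 each). The d, B, C and E sums are almost wholly a single gene each, Atp6v0d1, Atp6v1b2, Atp6v1c1 and Atp6v1e1, which held at least 98.5% in every mouse. Their falls thus restate those of these genes. Whether the a sum differed from the other sums in its response was not tested.

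**Figure D2:**
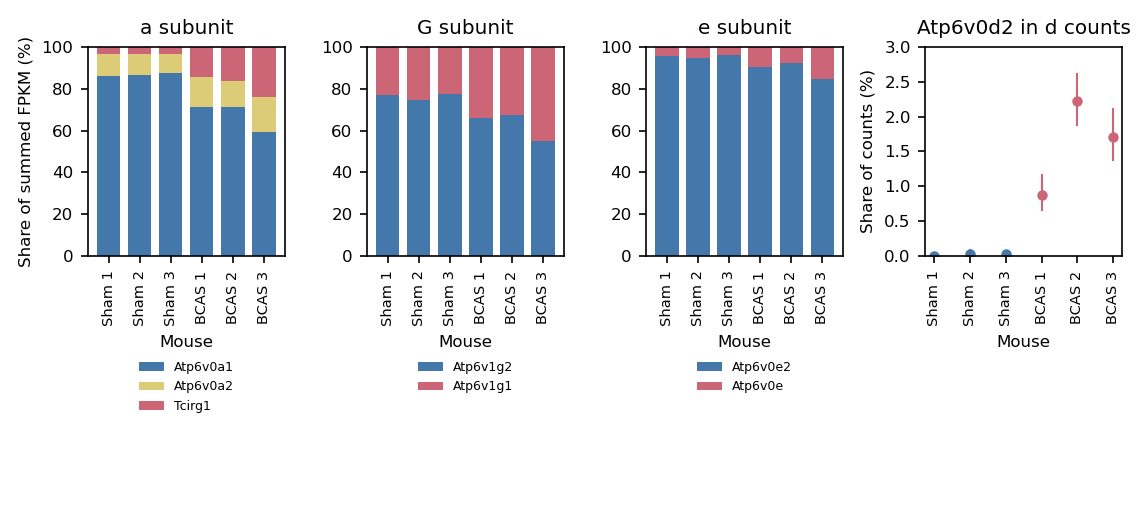
Forms of a subunit in each mouse: the first 3 panels give the share of the summed FPKM (%) taken by each form of the a, G and e subunits (Atp6v0a4 and Atp6v1g3, each near 0, are not drawn), and the last gives Atp6v0d2 as a share of Atp6v0d1 plus Atp6v0d2 counts (%), with exact 95% binomial intervals. Tcirg1, Atp6v1g1 and Atp6v0e take a larger share in each of the 3 BCAS mice than in any sham mouse.

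The d subunit, which couples the rotor of the V0 sector to the stalk of V1, showed the same opposition at a very different level. Atp6v0d2 (d2; chr4:19876841-19922605, minus strand) was covered by 0, 2 and 2 counts in sham mice 1 to 3, compared with 47, 135 and 82 in BCAS mice 1 to 3. The sham libraries were thus all at or under the limit of 3 counts, which corresponds to 0.0875 to 0.0898 CPM in the sham libraries. Against the highest sham limit, the BCAS mean of 2.85 CPM was at least 31.7-fold higher, and the lowest BCAS mouse at least 16.1-fold higher. A read pair can give 2 counts, and with a limit of 6 counts, the mates of 3 pairs, the bound on the mean is 15.9-fold. It entered the test only through the BCAS mice, in which it is high, so its adjusted P (0.000368, edgeR) is a description.

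Atp6v0d1 (d1; chr8:105524465-105566047, minus strand) measured 119.5, 121.3 and 135.1 FPKM in sham mice and 90.7, 109.6 and 84.4 FPKM in BCAS mice. The BCAS mice were all lower, BCAS mouse 2 least so. Atp6v0d1 fell by 24.2% (log2 fold change -0.40, SE 0.11, adjusted P = 0.0214, edgeR). Even after the rise, Atp6v0d2 was a small part of the d subunit. It took 0.881% (exact 95% interval 0.648 to 1.17), 2.23% (1.87 to 2.63) and 1.71% (1.36 to 2.12) of the d counts in BCAS mice 1 to 3. In sham mouse 1 the share was 0 of 7258 counts (exact 95% interval 0 to 0.0508%; the limit of 3 counts is 0.0413%), and in sham mice 2 and 3 it was 0.0275% and 0.0241%. These intervals cover counting error only and treat the mates of a pair as independent counts, so they are too narrow. The order of the BCAS mice differed between the genes, since Tcirg1 was highest in mouse 3 and Atp6v0d2 in mouse 2.

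The catalytic core of V1 has no macrophage form among these genes, and its members fell. Atp6v1a (chr16:44085402-44139705, minus strand), the A subunit that hydrolyses ATP, measured 112.3, 117.6 and 121.8 FPKM in sham mice and 93.3, 88.8 and 75.4 FPKM in BCAS mice. Atp6v1a fell by 26.8% (log2 fold change -0.45, SE 0.11, adjusted P = 0.0125, edgeR). Atp6v1b2 (chr8:69088646-69113711, plus strand), the B form of brain that alternates with A in the ring, measured 129.9, 136.7 and 145.4 FPKM in sham and 97.9, 121.1 and 82.7 FPKM in BCAS mice. Both genes were lower in all 3 BCAS mice than in any sham mouse. Atp6v1b2 fell by the same 26.8% with a wider spread (log2 fold change -0.45, SE 0.14, adjusted P = 0.0378). Its kidney and inner ear counterpart Atp6v1b1 was too low to be tested and held at most 0.0503% of the B forms in any mouse.

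Atp6v1h (chr1:5070018-5162529, plus strand), the H subunit that links V1 to V0 and keeps detached V1 inactive, had the lowest level of the V1 members. It measured 17.4, 17.8 and 20.7 FPKM in sham mice and 12.9, 15.0 and 12.2 FPKM in BCAS mice. The groups did not overlap. Atp6v1h fell by 28.2% (log2 fold change -0.48, SE 0.10, adjusted P = 0.00852, edgeR). It alone among the 6 lower genes was called whichever mouse was left out. Of its 9746 exonic bases, 127 lie opposite an exon of Rgs20, and strand was ignored in the counting.

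The G subunit, part of the peripheral stalk, separated its forms in a milder way. Atp6v1g2 (G2; chr17:35233660-35238767, plus strand) measured 189.3, 190.6 and 215.2 FPKM in sham mice and 122.9, 150.7 and 90.4 FPKM in BCAS mice. It was the highest of the 10 genes in each sham mouse, and in BCAS mouse 3 it was below Atp6ap1. Atp6v1g2 fell by 38.8% (log2 fold change -0.71, SE 0.17, adjusted P = 0.0123, edgeR). Of its 2510 exonic bases, 144 overlap Nfkbil1 on the other strand. Atp6v1g1 (G1; chr4:63544772-63550750, plus strand) measured 57.0, 64.7 and 63.3 FPKM in sham and 63.7, 72.1 and 73.5 FPKM in BCAS mice. Its groups overlapped, and its log2 fold change of 0.18 (SE 0.084) did not pass the test (adjusted P = 0.143).

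The FPKM of Atp6v1g2 equalled 331.9%, 294.4% and 340.1% of that of Atp6v1g1 in sham mice and 193.1%, 209.1% and 122.9% in BCAS mice. On the log2 scale the ratio was 1.69 ± 0.11 (SD, n = 3) in sham and 0.77 ± 0.41 (SD, n = 3) in BCAS mice, a change to 0.531 of the sham ratio (exact permutation P = 0.1, no overlap). As a share of the G forms, Atp6v1g2 had a mean of 76.2% ± 1.41 in sham and 62.9% ± 6.77 in BCAS mice (SD, n = 3). In BCAS mouse 3 the share was 55.1%, the lowest of the 6 mice.

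Atp6ap1 (chrX:74297097-74304721, plus strand), an accessory protein of V0 that helps the pump assemble in the endoplasmic reticulum, measured 113.1, 114.0 and 123.4 FPKM in sham mice and 99.8, 113.1 and 102.6 FPKM in BCAS mice. Its groups met within rounding, at sham mouse 1 and BCAS mouse 2. The log2 fold change of -0.15 (SE 0.084) did not pass the test (adjusted P = 0.206, edgeR).

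The lower calls depended on the mice included. All 6 were kept without BCAS mouse 2, and 5 without BCAS mouse 3, where Atp6v1b2 was lost. Without sham mouse 1, sham mouse 2 or BCAS mouse 1, in turn, 3 were left, and Atp6v0a1, Atp6v0d1 and Atp6v1b2 were lost each time. Without sham mouse 3 only Atp6v1h was left, while the adjusted P reached 0.0507 for Atp6v1a and 0.0538 for Atp6v1g2. In each of these fits the 6 genes had a negative log2 fold change.

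The remaining subunits and accessory proteins are encoded by 16 genes. Of the 13 that could be tested, 2 rose (against 18.0% of all tested genes), 5 fell (against 13.2%) and 6 did not pass the test, with a median log2 fold change of -0.30. The 2 that rose were V0 genes, Atp6v0a2 with a log2 fold change of 0.59 (SE 0.089, adjusted P = 0.00147, edgeR; 663 of its 6726 exonic bases lie opposite exons of 4930404A12Rik) and Atp6v0e, a general form of the small e subunit, with 0.84 (SE 0.14, adjusted P = 0.00272). Atp6v0e measured 7.46, 9.30 and 7.62 FPKM in sham mice and 14.0, 12.3 and 17.4 FPKM in BCAS mice. Its brain-rich partner Atp6v0e2 measured 165.0, 168.1 and 186.3 FPKM in sham mice and 129.0, 146.0 and 96.7 FPKM in BCAS mice, and fell (log2 fold change -0.48, SE 0.14, adjusted P = 0.031). The share of Atp6v0e among the e forms went from 4.50% ± 0.67 to 10.9% ± 3.88 (SD, n = 3), without overlap (exact permutation P = 0.1). The e pair was added after its values had been seen.

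The remaining genes that fell were Atp6v1c1, Atp6v1d, Atp6v1e1 and Atp6ap2, the last known as the prorenin receptor. Their log2 fold changes were -0.38, -0.50, -0.48 and -0.39, with adjusted P of 0.0342, 0.0087, 0.0117 and 0.0122 (edgeR). Of the 5 lower calls, Atp6v0e2 included, only that of Atp6v1d was left without sham mouse 3. Without sham mouse 1, sham mouse 2 or BCAS mouse 1, Atp6v0e2 and Atp6v1c1 were lost, and without BCAS mouse 3 Atp6v1c1 was. Atp6v0c, the gene of the proton-carrying c ring, had a log2 fold change of -0.32 and lower values in every BCAS mouse, but an adjusted P of 0.0686 (0.0193 with DESeq2). Atp6v0b and Atp6v1f had -0.068 and -0.13, with overlapping groups. Atp6v0a4, Atp6v1c2 and Rnasek were tested at under 1.3 CPM in the sham mean and did not pass. Rnasek shares 599 of its 885 exonic bases with a gene on the same strand, so its counts are uncertain. Atp6v1b1, Atp6v1e2 and Atp6v1g3 were too low to be tested.

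**Figure D3:**
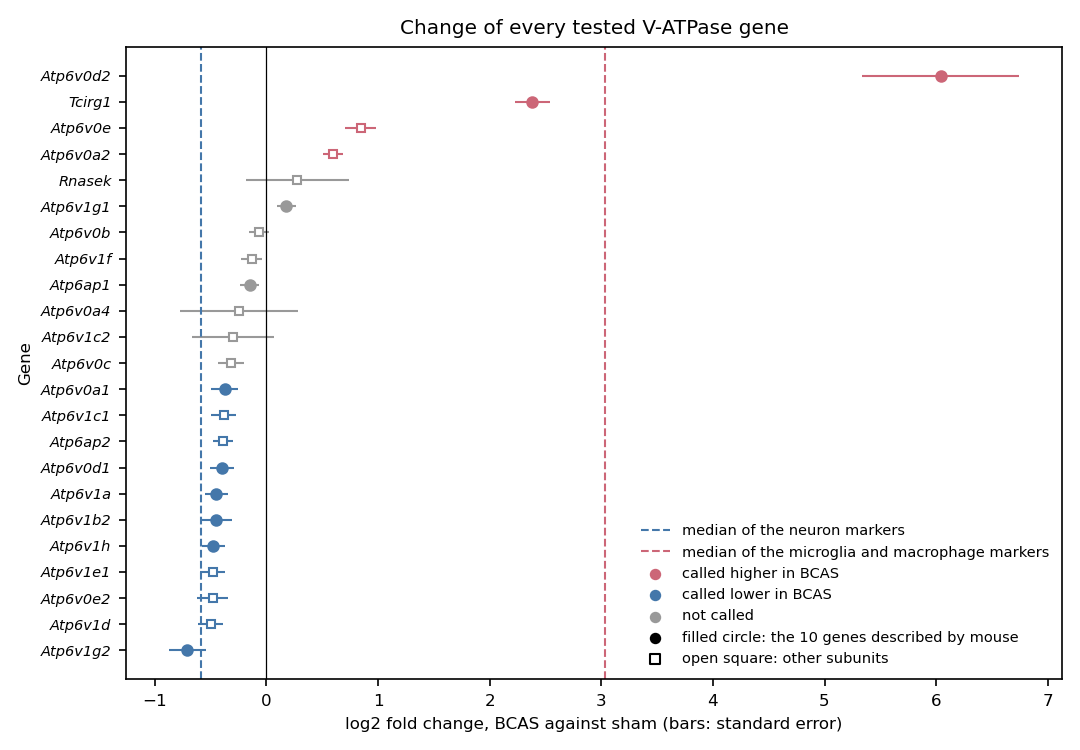
Log2 fold change of every tested V-ATPase gene, BCAS against sham, with its standard error, for the 10 genes described by mouse (filled circles) and the other subunits (open squares), in red where called higher, in blue where called lower and in grey where not called. The dashed lines are the medians of the neuron markers (-0.59) and of the microglia and macrophage markers (3.04). The fitted value of Atp6v0d2 rests on sham counts of 0, 2 and 2 and depends on the prior count.

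Markers of cell types moved with these groups, beside 18.0% of all tested genes called higher and 13.2% called lower. Of 10 neuron markers 8 fell, among them Nefl, Snap25 and Rbfox3, with a median log2 fold change of -0.59. Their summed level was 7543 to 8176 CPM in sham and 4330 to 6124 CPM in BCAS mice. Map2 and Tubb3 did not pass the test, though an alternative fit called each of them lower (smallest adjusted P 0.00466 and 0.0026). Of the 8 calls, 5 were left when any 1 of the sham mice was left out, and 6 without BCAS mouse 1. All 10 microglia and macrophage markers rose, led by Cd68, Ptprc and C1qa, with a median of 3.04, and their summed level went from 318.8 to 332.8 CPM in sham to 1974 to 3198 CPM in BCAS mice. Of 5 markers of border macrophages 3 rose, F13a1, Mrc1 and Cd163. All 6 astrocyte markers rose as well, Gfap and Aqp4 the most (Slc1a2 not when sham mouse 1, 2 or 3 or BCAS mouse 1 was left out), 3 of 5 endothelial markers rose, which were Cdh5, Flt1 and Pecam1, and the 6 oligodendrocyte markers had a median of 0.13. Of the neutrophil markers only S100a9 could be tested (adjusted P = 0.202), and Ly6g was at 0 in all libraries. Choroid plexus markers, whose tissue lies beside the hippocampus, summed to between 69.8 and 4078 CPM in sham and between 40.3 and 5918 CPM in BCAS mice. The part of these cells in the V-ATPase changes was not tested.

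Each gene was therefore also set against markers within the same mouse, as its log2 CPM less the mean log2 CPM of a marker list. On this scale the difference between BCAS and sham mice was -0.59 for the neuron mean and 2.97 for the microglia and macrophage mean. Relative to the neuron markers, Atp6v0a1 lay higher in BCAS than in sham mice by 0.20, Atp6v0d1 by 0.18 and Atp6v1b2 by 0.12, each without overlap (exact permutation P = 0.1 each). Atp6v1a and Atp6v1h differed by 0.13 and 0.11 with overlapping groups (exact permutation P = 0.3 each). For Atp6v1g2 the difference was -0.15, again with overlap (exact permutation P = 0.3). Atp6v1g1 at 0.76 and Atp6ap1 at 0.43 had the largest differences of the 8 genes set against neuron markers, without overlap (exact permutation P = 0.1 each). The small differences depended on single mice. Atp6v1g2 was at -0.068 and Atp6v1h at 0.057 without BCAS mouse 3, Atp6v1b2 at 0.078 without BCAS mouse 2, and Atp6v1a at 0.084 without BCAS mouse 1 and 0.20 without BCAS mouse 2.

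Relative to the microglia and macrophage markers, Tcirg1 was lower in BCAS mice, with a difference of -0.62 (exact permutation P = 0.1, no overlap), so its rise was smaller than the mean of that list. With each marker left out in turn, this difference ran from -0.78 to -0.49. Its log2 fold change of 2.38 was above those of the markers Tmem119 (2.02) and P2ry12 (1.54) and below those of all other markers of the list. For Atp6v0d2, which passed the filter only through the BCAS mice, the fitted difference of 1.81 depends on the prior count and is given as a description. The log2 of its lower bound was 4.99 (3.99 with the limit of 6 counts), and the log2 fold changes of the 10 markers ran from 1.54 to 4.17. Adjusted over the 10 genes, the exact permutation P was 0.143 for the 7 genes without overlap and 0.3 for the others. Atp6v0d2 is among the 7, and its P is a description too. No share without overlap over all tested genes is given on this scale.

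**Figure D4:**
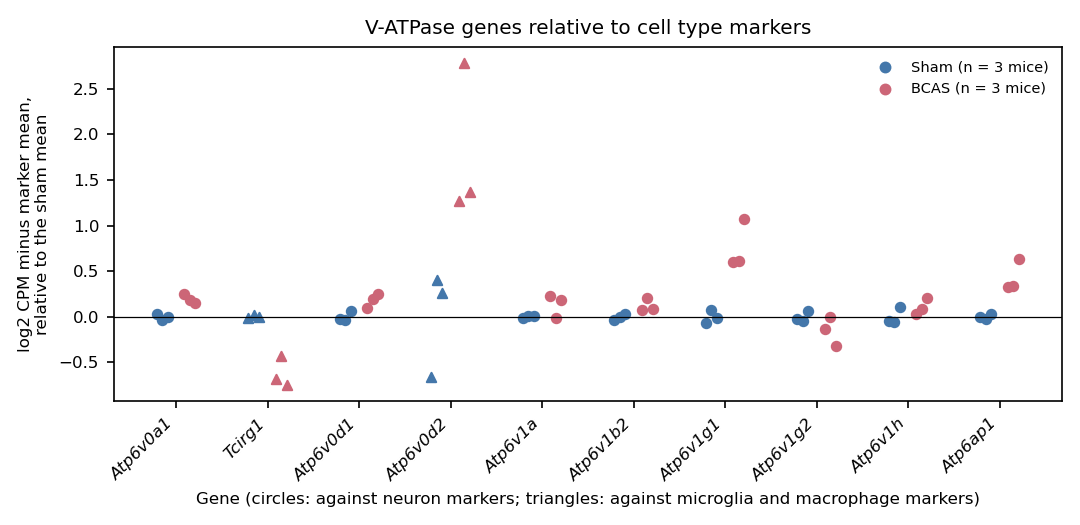
Log2 CPM of each gene less the mean log2 CPM of its marker list in the same mouse, shown relative to the sham mean (circles, against 10 neuron markers; triangles, against 10 microglia and macrophage markers; sham in blue, BCAS in red, n = 3 mice a group). Against the neuron markers, Atp6v1g1, Atp6ap1, Atp6v0a1, Atp6v0d1 and Atp6v1b2 lie higher in every BCAS mouse than in any sham mouse. Atp6v1a, Atp6v1h and Atp6v1g2 overlap between the groups. Tcirg1 lies lower in every BCAS mouse against the mean of the microglia and macrophage markers.

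Other genes of the pathway were counted in fixed lists, to be read against the 18.0% of all tested genes called higher and the 13.2% called lower. Among factors for V-ATPase assembly and regulation, 4 of 11 tested genes fell, namely Rogdi, Dmxl2, Wdr7 and Ncoa7, and the median was -0.21. Rogdi, Dmxl2 and Wdr7, known from the assembly of V1 on V0, fell with log2 fold changes of -0.49 (adjusted P = 0.00368), -0.48 (0.013) and -0.47 (0.016) in edgeR's test. Dmxl1, the paralogue of Dmxl2, had 0.036 and was among the 7 that did not pass (adjusted P = 0.75). Without sham mouse 1 only Rogdi was left of the 4, and without sham mouse 3 Rogdi and Dmxl2. Among vesicular transmitter transporters, which use the proton gradient, 2 of 5 tested genes fell, the glutamate transporter Slc17a7 by 0.69 and the GABA transporter Slc32a1 by 0.46 on the log2 scale (adjusted P = 0.0249 and 0.0157). Slc17a7 was lost when any 1 of the sham mice was left out (adjusted P 0.0637 to 0.0851), and Slc32a1 without sham mouse 3 (0.059). Slc17a6, Slc17a8 and Slc18a2 had values of -0.13, -0.22 and -0.32 that did not pass. Over the alternative fits Slc17a6 ranged from -0.50 to 0.063 and Slc17a8 from -0.71 to 0.049. The smallest adjusted P of these fits was 0.0341 for Slc17a6.

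On the lysosomal side, 3 of 10 channels and exchangers rose (against 18.0% of all tested genes), namely Tpcn2, Tpcn1 and Clcn7, with log2 fold changes of 1.33, 0.71 and 0.31 (adjusted P = 0.00121, 0.000423 and 0.00953, edgeR). Tpcn1 and Tpcn2 encode two-pore cation channels, and Clcn7 the chloride-proton exchanger of lysosomes and the osteoclast border. The median of that list was -0.021, and 5 of the 10 had a negative log2 fold change. Among these, Clcn3, Clcn4 and Clcn6, each lower in every BCAS mouse, had -0.22, -0.22 and -0.21. They did not pass the test (adjusted P 0.0529 to 0.0619, edgeR). An alternative fit called each of them lower (smallest adjusted P 0.0298, 0.0232 and 0.0143). Of the Ragulator and Rag GTPase genes, which dock mTORC1 on the lysosome, 2 of 10 fell (against 13.2% of all tested genes), Rragb at -0.58 and Rraga at -0.36 (adjusted P = 0.0106 and 0.0153), Rraga not without sham mouse 3 (0.0666). Of 10 genes known from osteoclasts and macrophage fusion, 7 could be tested and 5 rose, which were Itgb3, Acp5, Nfatc1, Tnfrsf11a and Ctsk, at 2.31, 2.27, 1.73, 1.45 and 0.75 (adjusted P up to 0.0268). Ctsk was lost without sham mouse 2, sham mouse 3 or BCAS mouse 3 (adjusted P 0.0821 to 0.0965). Mmp9 and Oscar did not pass, with 0.11 and -0.31. The fusion genes Dcstamp and Ocstamp and the receptor gene Calcr were too low to be tested.

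Mitf, Tfeb and Tfe3, whose products are transcription factors of lysosomal genes, all rose, with log2 fold changes of 0.82, 0.83 and 0.58 (adjusted P = 0.0177, 0.00627 and 0.0028, edgeR), and Tfec was too low to be tested. The call of Mitf was lost without sham mouse 1, sham mouse 3 or BCAS mouse 3 (adjusted P 0.0604 to 0.0695). These factors bind the E-box CACGTG, which reads the same on both strands, best within TCACGTGA. The letters were searched in RefSeq windows from 250 bases before to 50 after a gene's start (GRCm38.p6). CACGTG was present in 7.15% of all 32851 windows and TCACGTGA in 0.974%. Windows were found for 6 of the 10 genes, and Atp6v0d2, Atp6v1b2, Atp6v1g1 and Atp6v1h had no entry. Both Atp6v0d1 and Atp6v1a held the longer form, which contains the shorter, and Atp6v0a1, Tcirg1, Atp6v1g2 and Atp6ap1 held neither. Among 13 other subunits with a window, Atp6v0e held the longer form and Atp6v0b the shorter in 2 places. The match in each member and in Atp6v0e is shown on the gene's own strand, with CACGTG in capitals, since these are the windows that hold the longer form. The first capital lies 3 bases before the start in Atp6v0d1, 131 before it in Atp6v1a and at base 3 after it in Atp6v0e.
Atp6v0d1 (chr8:105566050-105566079, minus strand): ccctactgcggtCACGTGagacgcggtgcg
Atp6v1a (chr16:44139373-44139402, minus strand): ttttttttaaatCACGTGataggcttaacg
Atp6v0e (chr17:26676387-26676416, plus strand): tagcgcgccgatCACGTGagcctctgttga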

How the data were processed

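The authors trimmed the paired-end reads with Trim Galore, aligned them to mm10 with HISAT2 and counted them with featureCounts. The deposited values are raw counts per gene, not normalized. Per the file headers, mates were counted separately, strand was ignored and multi-mapped reads were left out. The headers name featureCounts 2.0.3, the submitters' processing notes 1.6.3. Totals were 29652456 to 35607098 counts per library, and TMM factors 0.964 to 1.05.

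Genes were kept with filterByExpr, normalized by TMM and tested with edgeR 4.0.16 (R 4.3.3) on all 6 libraries without a block. FPKM and log2 CPM (prior count 2) came from the same normalization. Isoform ratios and shares were compared by exact permutation tests. A count of 3 was taken as the limit of detection, which covers counting error only and takes mates as independent. For isoform ratios 0.5 was added to each count. The steps were tested on simulated data. Alternatives were DESeq2 1.42.0, limma-voom (limma 3.58.1), RLE factors, library totals, other filters, halved counts, the study's fold threshold, a replicate block, and leaving out each mouse. The e pair, the shares of forms and a limit of 6 counts were added after seeing the data.

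The members, lists, tests and alternatives were chosen with earlier results of these data known. Named genes were the 10 members, the other tested subunits and up to 3 called genes of each other list with the largest change. Any genes counted were named where 5 or fewer were counted. Dmxl1 was named in addition, as the paralogue of Dmxl2, and so were some genes that lost a call. Mice with equal replicate numbers were not treated as pairs, as the labels do not tie them. The residuals of such mice correlated at 0.036, -0.314 and -0.158, which with 3 mice a group cannot exclude a pairing. The labels put every sample in a group. BCAS mice are numbered 1 to 3 as in the sample titles, whereas the columns inside their tables carry the numbers 2 to 4. The coding sequences of the d pair are not reported here.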

Additional observations from a re-analysis of the deposited data

How the results depend on the processing

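Tcirg1 was called higher under all alternatives. Atp6v0d2 was too, but passed the filters only through the BCAS mice. The 6 lower calls were kept with DESeq2, limma-voom, RLE factors, both other filters and halved counts, and were 5 with library totals, which moved the median of all genes from 0.018 to 0.095. Requiring an absolute log2 fold change over 1 left 0 of the 6, since none reaches it. Leaving out 1 mouse left 1 to 6 lower calls, fewer samples also meaning a weaker test, and kept 2 higher calls each time. With the replicate number as a block, which is not stated to pair these mice, 4 lower calls remained. With 1 mouse of each group per number, the log2 isoform ratios under the replicate block equal those without it by construction, and no test was made of them: 2.74 for Tcirg1 to Atp6v0a1, 6.31 for Atp6v0d2 to Atp6v0d1 (5.22 with 2 in place of 0.5 added to each count, so it is no measure of size), -0.91 for Atp6v1g2 to Atp6v1g1 and 1.34 for Atp6v0e to Atp6v0e2. Of the other subunits, the block also removed Atp6v0e2 (adjusted P = 0.0577) and Atp6v1c1 (0.065), and of the other lists Mitf (0.0524), Ctsk (0.0507), Syt1 (0.0628) and Slc1a2 (0.13). Over all tested genes, higher and lower calls numbered 3356 and 2463 by TMM against 3859 and 1788 with library totals. With 3 mice a group no exact test on 1 value could pass 0.05, and depth limits Atp6v0d2 in sham mice.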

Other observations

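The genes whose log2 CPM followed 3 of the V-ATPase genes most closely over the 6 libraries were listed as a description. They were chosen from the 15630 tested genes that averaged 1 CPM or more. The 6 points fall into the groups sham and BCAS, so that any gene with a large difference between the groups scores high. For Tcirg1 they were Rsad2, Ctsh and Dock2, for Atp6v1g2 they were Ywhaz, Sh3gl2 and Lin7b, and for Atp6v0d2 they were Zfp595, Rpl17-ps3 and Gm6136, with Pearson r from 0.996 upwards. The number of genes with r above 0.9 was 2507, 2462 and 1886 for Tcirg1, Atp6v1g2 and Atp6v0d2. The sham values of Atp6v0d2 rest on counts of 0, 2 and 2, so its list and its number depend on the prior count.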
